A study of Mus musculus with 6 samples.

Results

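The genes described here are 34 genes of glycolysis and of the hypoxia response, chosen by name and with earlier results of these data known. The array named 19938 genes through probe sets of exactly 1 gene. Where several such probe sets carried a gene's name, the one brightest on average across the 6 arrays stood for it, and 32 of the 34 genes had a probe set. Gpi1 and Eno1, which encode glucose phosphate isomerase and enolase, were not analysed here. The genes fall into 18 of core glycolysis (transporters and enzymes from glucose uptake to lactate export), 3 regulators of glycolytic flux, 5 of oxygen sensing and 8 targets of hypoxia-inducible factor (HIF) outside glycolysis.

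The cells were pre-B cells of 129SvEv x C57BL/6J mice of 5 weeks, transformed with BCR-ABL1, the constantly active kinase that the Philadelphia chromosome encodes in acute lymphoblastic leukaemia (ALL). Both groups carried Sox4 fl/fl alleles, and Sox4 is a transcription factor of B-cell progenitors. The 3 control samples were transduced with ERT2, a modified oestrogen receptor domain that binds 4OHT (4-hydroxytamoxifen), and the other 3 samples with Cre-ERT2, a Cre recombinase fused to that domain and activated by 4OHT. RNA was taken 24 h after 4OHT, and 1 Affymetrix array was hybridised per sample. Whether replicates were separate mice or cultures is not stated in the labels, and p-values therefore cover the spread among these samples alone, which may be technical. No group combined Cre-ERT2 with unfloxed Sox4, so loss of Sox4 and activity of Cre cannot be told apart.

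Glycolysis turns glucose into pyruvate and lactate in the cytosol, and many of its steps are served by several isoenzymes encoded by different genes. HIF is a transcription factor whose alpha subunit is hydroxylated by prolyl hydroxylases of the Egln family while oxygen is present, which marks it for the VHL ubiquitin ligase and for degradation. When oxygen falls the subunit is spared, and HIF raises glycolytic enzymes, Egln3, Vegfa, Bnip3 and Car9, among many targets. B-cell leukaemia cells driven by BCR-ABL1 are known for high glucose consumption.

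Sox4, the targeted gene, fell from a mean intensity of 1356 ± 112 (SD, n = 3) to 546 ± 50.4 (SD, n = 3), and the 2 groups did not overlap (log2 difference -1.31, SE 0.0912, limma adjusted p = 0.000434). Median intensity lay between 273 and 279 over the arrays, and precision is limited by the number of arrays. Pre-B cell genes were bright: 11 of 12 markers were measured, and their median level lay at the 96.4 percentile of all genes, against percentiles from 8.20 to 44.6 for markers of T cells, NK cells, myeloid, erythroid and stromal cells. Of the 11 pre-B markers 1 rose, Vpreb2 (log2 difference 0.49, limma adjusted p = 0.00270), and 2 fell, the recombinase genes Rag1 (-0.89, 0.00595) and Rag2 (-1.35, 0.000214), and their summed intensity was 83325 to 83825 in ERT2 and 80149 to 81937 in Cre-ERT2 arrays. The summed intensity of 7 myeloid markers was 1099 to 1152 in ERT2 and 1556 to 1726 in Cre-ERT2 arrays, mainly through Lyz2 (351 ± 36.4 and 932 ± 97.6, SD, n = 3). Itgam, of the same myeloid list, fell from 199 ± 4.97 to 141 ± 13.3 (SD, n = 3; log2 difference -0.49, limma adjusted p = 0.0129), the other 5 myeloid markers did not pass, and the list's median difference was -0.02. The sum of 6 T-cell markers was 1200 to 1276 in ERT2 and 1328 to 1457 in Cre-ERT2 arrays, mainly through Cd5. Their part in the results below was not tested.

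Aldoc fell and Egln3 rose by more than 4-fold, and most other glycolysis and hypoxia genes did not pass the test. Of 32 genes, 2 rose (Egln3 and Vegfa) and 4 fell (Aldoc, Pfkp, Bnip3 and Car9) at a limma adjusted p under 0.05, which is 18.8%, while 8.10% of all genes passed in either direction (4.38% higher and 3.72% lower), and 6.05% of all probe sets. The median log2 difference of the 32 genes was -0.01, against 0.02 over all genes. In 16 of the 32 genes the 3 Cre-ERT2 arrays lay wholly above or wholly below the 3 ERT2 arrays, against 28.3% of all genes. These shares are a description, since the genes were chosen with earlier results known. The 26 genes that did not pass had log2 differences from -0.31 to 0.17.

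**Figure D1:**
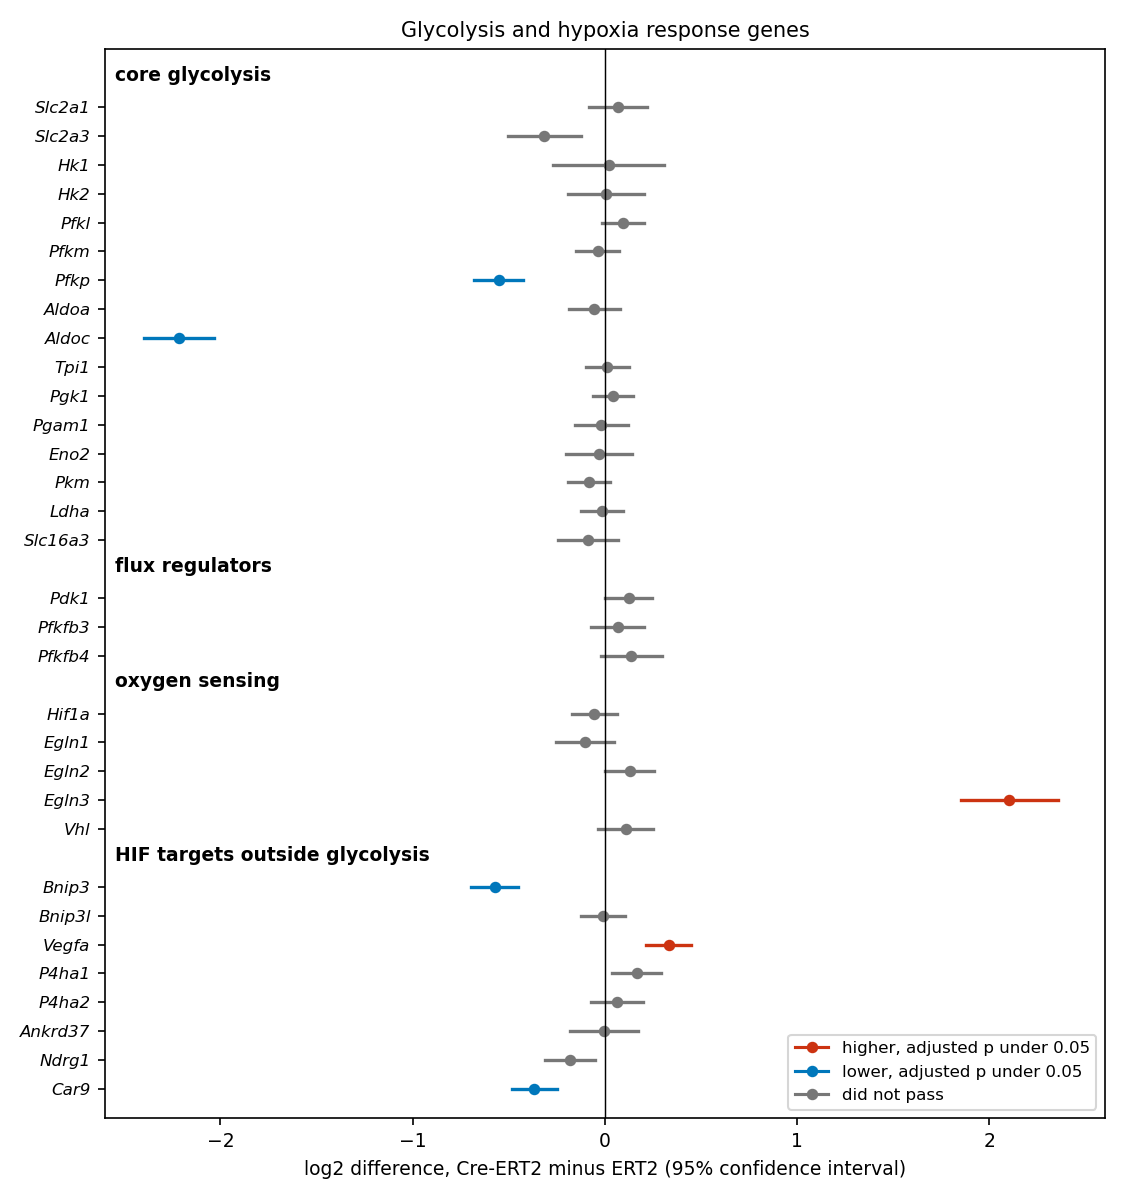
Log2 difference (Cre-ERT2 minus ERT2, x axis) of each of the 32 measured genes with its 95% confidence interval, in 4 functional groups on the y axis. Points for Aldoc (-2.22) and Egln3 (2.10) lie far from all others, and 26 grey points did not pass the test.

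Among the core glycolytic genes, 0 of 16 rose and 2 fell at the adjusted threshold in limma, and at an unadjusted p under 0.05 the counts were 0 and 3 (all genes: 12.2% higher and 7.93% lower at that threshold, 20.1% in all). Their share of 12.5% compares with the 8.10% of all genes, and their median log2 difference was -0.03. Hk1 was counted by its brighter probe set, and its other one is described below. The fallen genes, Aldoc and Pfkp, are isoforms of steps that other genes also serve.

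Aldoc encodes aldolase C, the isoform best known from brain, which splits fructose bisphosphate into triose phosphates. Its probe set (10379153) read 1172, 1212 and 1040 in the ERT2 arrays and 260, 233 and 241 in the Cre-ERT2 arrays. All 3 Cre-ERT2 values were thus far below the lowest control, and their mean was 21.4% of the control mean. The ERT2 values lay above the median intensity of the arrays (273 to 279) and the Cre-ERT2 values below it. How much of the remaining signal is background was not tested. The log2 difference was -2.22 (SE 0.0764, limma adjusted p = 3.88e-05), the 31st lowest of the 19938 genes. Over 19 alternative settings it ranged from -2.28 to -2.15, and it passed the threshold in all of them.

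Pfkp, the platelet-type phosphofructokinase, read 2584, 2692 and 2536 in the ERT2 arrays and 1706, 1843 and 1775 in the Cre-ERT2 arrays. The groups lay well apart, with the Cre-ERT2 mean at 68.1% of the control mean. The log2 difference was -0.55 (SE 0.0528, limma adjusted p = 0.00166). The call held without any 1 of the 6 arrays (limma adjusted p from 0.00664 to 0.0147).

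The other isoforms of these steps did not pass the test. Aldoa, the widely expressed aldolase, read 8368, 7839 and 7630 in ERT2 and 7851, 7682 and 7398 in Cre-ERT2 arrays, with overlapping groups. Its log2 difference of -0.06 had a 95% interval from -0.19 to 0.08. Pfkl, the liver-type phosphofructokinase, read 1970, 1971 and 1934 in ERT2 and 2121, 2119 and 2035 in Cre-ERT2 arrays. Its groups lay narrowly apart in the direction opposite to Pfkp, but the difference of 0.09 did not pass (interval -0.01 to 0.20, limma adjusted p = 0.371). Pfkm, the muscle type, had overlapping groups and a difference of -0.04 (interval -0.15 to 0.07).

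The unequal change of isoforms was followed in each array as a log2 ratio, for 7 pairs chosen after their values had been seen, so the ratios are a description with no test. The log2 ratio of Aldoc to Aldoa was lower by 2.16 in Cre-ERT2 arrays, where it lay between -5.03 and -4.91, against -2.87 to -2.69 in ERT2 arrays. The ratio of Pfkp to Pfkl was lower by 0.65, its ranges being 0.39 to 0.45 in ERT2 and -0.31 to -0.20 in Cre-ERT2 arrays. The ratio of Pfkp to Pfkm went from a mean of 1.06 to 0.55. Levels of different probe sets cannot be set against each other, so only the shift of a ratio can be read, not its sign or size.

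**Figure D2:**
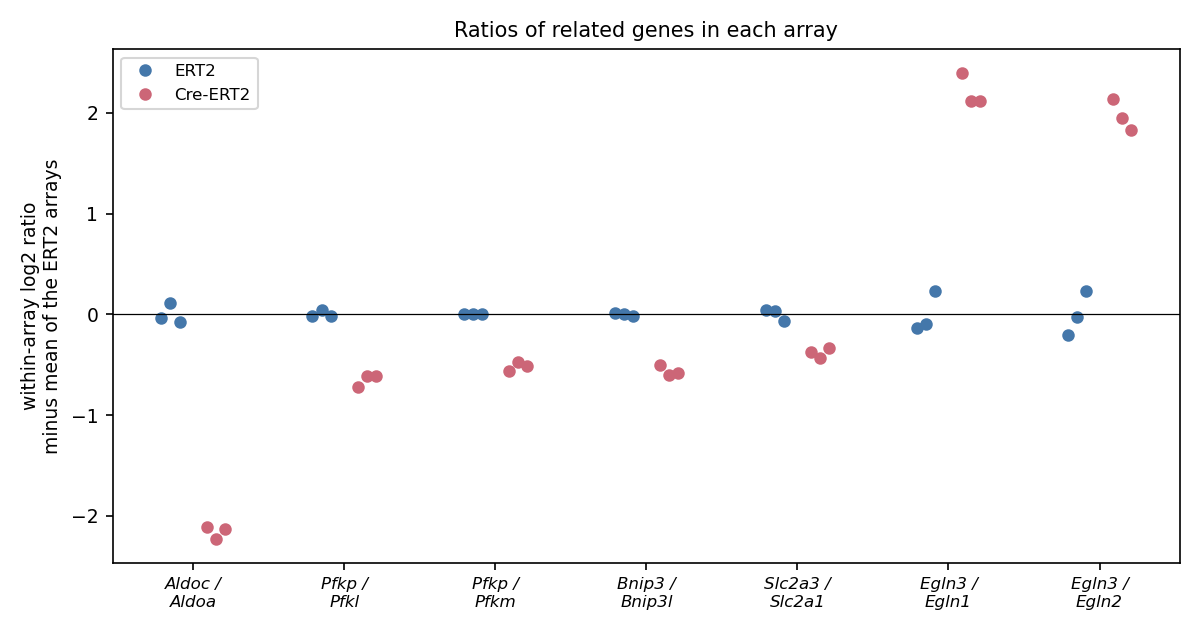
Within-array log2 ratio of 7 pairs of related genes (x axis), as the difference from the mean of the ERT2 arrays (y axis, log2 units), with 1 point per array. Pairs were chosen after their values had been seen, and the shift is widest for Aldoc over Aldoa (-2.16) and Egln3 over Egln1 (2.21).

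At the entry of glucose into the cell, Slc2a1, the main glucose transporter of lymphoid cells (GLUT1), read 3120, 3112 and 2805 in ERT2 and 3121, 3284 and 3050 in Cre-ERT2 arrays. Those ranges overlapped, and the log2 difference was 0.07 (interval -0.08 to 0.22). Slc2a3, the high-affinity transporter GLUT3, read 427, 423 and 356 in ERT2 and 320, 325 and 321 in Cre-ERT2 arrays. All its Cre-ERT2 values were lower than all controls, with ERT2 replicate 3 nearest to them. Its difference of -0.31 (SE 0.0794) did not pass over all 35556 probe sets (limma adjusted p = 0.0830). It passed without ERT2 replicate 3 (0.0121), with estimated array weights (0.0140), among the brighter probe sets (0.0404), with all probe sets of a gene averaged (0.0184), or when only probe sets of exactly 1 gene were tested (0.0217).

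The hexokinases, which trap glucose as its phosphate, did not pass the test. Hk2 had a log2 difference of 0.01 (interval -0.19 to 0.20) on values from 1035 to 1210 over all arrays. Hk1 is ambiguous on this array, because its brighter probe set (10414661), with a difference of 0.02, was annotated by a single transcript record, and the annotation named Hk1 together with Rpl17 in 16 further probe sets. The other Hk1 probe set (10369541) had a mean of 797 in ERT2 and 900 in Cre-ERT2 arrays, with all Cre-ERT2 values higher. Its difference of 0.18 did not pass either (limma adjusted p = 0.279). Its unadjusted p in limma was 0.0458. The count of 0 core glycolytic genes higher at an unadjusted p under 0.05 thus rests on the brighter probe set.

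None of the measured enzymes from triose phosphate to lactate passed the test. Ldha, the lactate dehydrogenase subunit that HIF and Myc are known to induce, read 16309, 16783 and 15967 in ERT2 and 15980, 16387 and 16220 in Cre-ERT2 arrays. With a log2 difference of -0.01 and an interval from -0.12 to 0.10, a change of the size seen in Pfkp lies outside that interval. Tpi1, Pgk1, Pgam1 and Pkm, the enzymes between triose phosphate and pyruvate, had differences of 0.01, 0.04, -0.02 and -0.08. The widest of their 4 intervals, that of Pgam1, ran from -0.16 to 0.12, and that of Pkm from -0.19 to 0.03. In every probe set the groups lay apart for Pgk1 (higher) and Pkm (lower, -0.06 in its other probe set). Groups lay apart in 28.3% of all genes. For Pgk1 and Pgam1 several probe sets carry the name, a pair of them with identical values in each gene, so signal from near-identical copies of these genes cannot be told apart. Eno2, the neuronal enolase, was dim, at 171 to 194 over all arrays, and had a difference of -0.03. Slc16a3, the lactate exporter MCT4, had a difference of -0.09 (interval -0.25 to 0.07).

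Of the 3 regulators of flux, 0 passed in limma, and 1 had an unadjusted p under 0.05, as had 20.1% of all genes. Pdk1, the kinase that switches off pyruvate dehydrogenase and so keeps pyruvate out of mitochondria, read 2127, 2308 and 2165 in ERT2 and 2410, 2376 and 2401 in Cre-ERT2 arrays. Its groups lay just apart, with a difference of 0.12 (SE 0.0506, limma adjusted p = 0.283). Pfkfb3 and Pfkfb4, which make the activator of phosphofructokinase, had differences of 0.07 and 0.14 with overlapping groups.

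**Figure D3:**
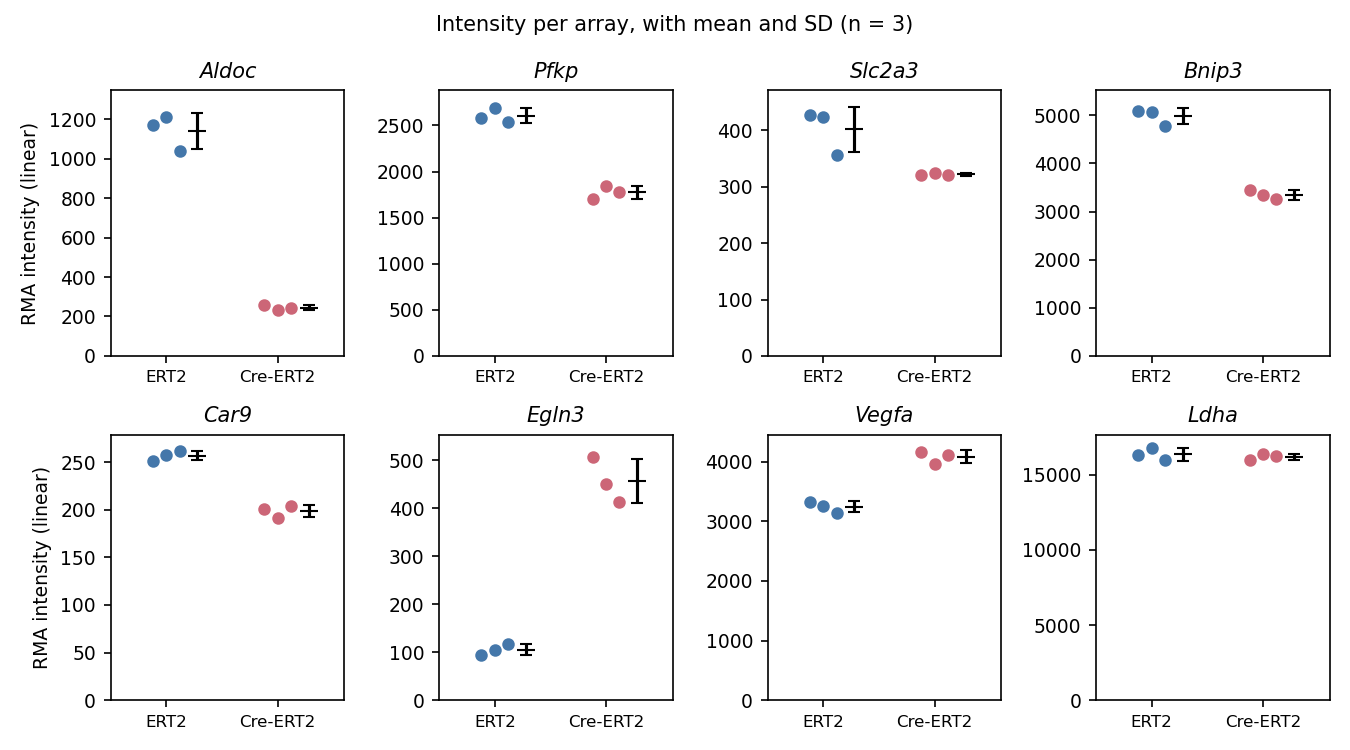
RMA intensity (linear y axis from 0) of 8 genes in each of the 3 ERT2 and 3 Cre-ERT2 arrays, with bars for mean and SD (n = 3). Aldoc, Pfkp, Slc2a3, Bnip3 and Car9 are lower and Egln3 and Vegfa higher in all Cre-ERT2 arrays, while the Ldha groups overlap. Of these, Slc2a3 and Ldha did not pass the test.

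In the oxygen-sensing group 1 of 5 genes rose and 0 fell in limma, against 8.10% of all genes in either direction (2 and 0 at an unadjusted p under 0.05, against 20.1%). Egln3 encodes the prolyl hydroxylase PHD3, which is itself a HIF target and dampens the response it belongs to. Its probe set (10400304) read 95.1, 104 and 117 in ERT2 and 506, 450 and 414 in Cre-ERT2 arrays. The ERT2 values lay below the median of their arrays and the Cre-ERT2 values above it, and the Cre-ERT2 mean was 433% of the control mean. The log2 difference was 2.10 (SE 0.104, limma adjusted p = 0.000124), the 10th highest of the 19938 genes. It ranged from 1.96 to 2.18 over 18 alternatives and passed in each of them; it was not among the brighter part of the probe sets.

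The other oxygen-sensing genes did not pass. Egln1, which encodes PHD2, the main HIF hydroxylase of most cells and a HIF target too, read 2366, 2524 and 2265 in ERT2 and 2161, 2340 and 2150 in Cre-ERT2 arrays. Its groups overlapped, and its difference of -0.11 (interval -0.26 to 0.05) pointed away from that of Egln3. Egln2, the third hydroxylase of the family, read 1390, 1333 and 1262 in ERT2 and 1441, 1458 and 1457 in Cre-ERT2 arrays, just apart, but its difference of 0.13 did not pass (limma adjusted p = 0.281). Within arrays the log2 ratio of Egln3 to Egln1 was higher by 2.21 in Cre-ERT2 arrays, and that of Egln3 to Egln2 by 1.97.

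Hif1a itself, the regulated subunit, read 5525, 5741 and 5552 in ERT2 and 5200, 5485 and 5501 in Cre-ERT2 arrays. The difference of -0.06 (interval -0.17 to 0.06) did not pass, although the groups lay narrowly apart. Vhl, which recognises hydroxylated HIF, had a difference of 0.11 (interval -0.03 to 0.25). HIF is controlled mainly through the stability of its protein, which an array does not measure.

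The HIF targets outside glycolysis moved both ways: 1 of 8 rose and 2 fell, 37.5% against the 8.10% of all genes, with a median log2 difference of -0.01. Counting Pdk1, Pfkfb3, Pfkfb4, Egln1 and Egln3 as HIF targets as well gave 2 higher and 2 lower of 13, which is 30.8%, with a median of 0.06. The median size of the difference, without regard to sign, was 0.17 in the 8 HIF targets, 0.05 in the 16 core glycolytic genes and 0.07 over all genes. No test of the difference between the groups was made, since the genes were chosen with earlier results known.

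Bnip3, a mitophagy receptor of the outer mitochondrial membrane and a standard marker of hypoxia, fell. It read 5092, 5077 and 4784 in ERT2 and 3454, 3335 and 3255 in Cre-ERT2 arrays. The groups were far apart, and the Cre-ERT2 mean was 67.2% of the control mean. The log2 difference was -0.57 (SE 0.0516, limma adjusted p = 0.00128), and a second probe set (10568785) gave -0.52 (limma adjusted p = 0.00301). Its close relative Bnip3l, also called Nix, had differences of -0.01 and -0.02 in its 2 probe sets, and the within-array log2 ratio of Bnip3 to Bnip3l was lower by 0.56.

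Car9 encodes a cell-surface carbonic anhydrase that is induced by HIF and removes acid. It read 251, 257 and 262 in ERT2 and 201, 192 and 204 in Cre-ERT2 arrays, so that all Cre-ERT2 values were lower. Car9 was dim, with every value below the median intensity of the arrays (273 to 279). Its log2 difference was -0.37 (SE 0.0487, limma adjusted p = 0.00661), and the call held without any 1 of the 6 arrays (0.0220 to 0.0366).

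Vegfa, the angiogenic growth factor, rose. It read 3330, 3255 and 3146 in ERT2 and 4163, 3961 and 4120 in Cre-ERT2 arrays, with every Cre-ERT2 value above every control. The log2 difference was 0.33 (SE 0.049, limma adjusted p = 0.0109). The call ended without Cre-ERT2 replicate 1 (0.0530), and likewise without Cre-ERT2 replicate 3 (0.0678), at differences of 0.32 in each.

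The other targets did not pass. P4ha1, a subunit of the enzyme that hydroxylates collagen, read 1881, 2035 and 1859 in ERT2 and 2151, 2179 and 2143 in Cre-ERT2 arrays, higher throughout, with a difference of 0.17 (interval 0.04 to 0.29, limma adjusted p = 0.165). It passed with estimated array weights alone (0.0332). Its relative P4ha2 was dim (171 to 193) and had a difference of 0.06. Ndrg1, a stress-response gene, read 381, 390 and 359 in ERT2 and 327, 325 and 343 in Cre-ERT2 arrays, lower throughout, with a difference of -0.18 (limma adjusted p = 0.134). Ankrd37, an ankyrin repeat gene that hypoxia induces, had overlapping groups and a difference of -0.01.

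Promoter sequence was examined for the letters that HIF is known to bind, ACGTG or GCGTG, on both strands (CACGT and CACGC on the printed strand). ACGTG overlaps the E box CACGTG, which Myc and related factors bind. The RefSeq promoter table (GRCm38.p6) gives 300 bases around each gene start, 250 before it and 50 from it on, and held 46 windows for 31 of the 34 genes. Bnip3l, Ndrg1 and Slc2a3 had no window. ACGTG was found in a window of 22 of the 31 genes (71.0%), against 21.8% of the 27025 genes of the table, and GCGTG in 19 (61.3%), against 35.2%. A gene counted if any of its windows held the word. Of the 46 single windows, 54.35% held ACGTG, against 19.62% of all windows, and 54.35% held GCGTG, against 32.39%. By outcome, ACGTG was present in 3 of the 4 genes that fell, in both that rose and in 17 of the 23 that did not pass. Vegfa, which rose, held it only in an internal window and not in its upstream one. The letters were thus common both in genes that passed and in genes that did not, and their presence is a description, not a site of binding.

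The windows of 5 of the 6 genes that passed are printed to show how the same letters lie in genes that went opposite ways, with ACGTG and GCGTG of either strand in capitals, each 5′ to 3′ on the strand of its gene. Those of the fallen genes come first, Aldoc at chr11:78322823-78323122 (plus strand), Pfkp at chr13:6648722-6649021 (minus), Bnip3 at chr7:138909457-138909756 (minus) and Car9 at chr4:43506776-43507075 (plus), followed by Egln3, which rose, at chr12:54203825-54204124 (minus).
Aldoc: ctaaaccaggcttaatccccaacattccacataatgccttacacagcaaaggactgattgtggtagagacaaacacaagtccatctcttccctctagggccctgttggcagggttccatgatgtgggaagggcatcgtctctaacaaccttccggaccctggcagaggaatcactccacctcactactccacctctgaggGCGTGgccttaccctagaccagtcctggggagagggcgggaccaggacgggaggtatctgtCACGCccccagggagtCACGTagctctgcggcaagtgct
Pfkp: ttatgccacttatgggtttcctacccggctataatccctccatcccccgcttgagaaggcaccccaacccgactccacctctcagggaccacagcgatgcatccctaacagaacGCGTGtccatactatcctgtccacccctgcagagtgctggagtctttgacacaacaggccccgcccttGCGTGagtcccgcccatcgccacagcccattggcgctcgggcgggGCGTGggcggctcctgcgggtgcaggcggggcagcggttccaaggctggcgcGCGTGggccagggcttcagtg
Bnip3: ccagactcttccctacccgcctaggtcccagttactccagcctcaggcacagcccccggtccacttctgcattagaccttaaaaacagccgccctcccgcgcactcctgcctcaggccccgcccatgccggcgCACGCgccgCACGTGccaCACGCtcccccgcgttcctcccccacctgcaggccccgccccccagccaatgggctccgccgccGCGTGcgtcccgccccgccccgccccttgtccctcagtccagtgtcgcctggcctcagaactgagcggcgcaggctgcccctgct
Car9: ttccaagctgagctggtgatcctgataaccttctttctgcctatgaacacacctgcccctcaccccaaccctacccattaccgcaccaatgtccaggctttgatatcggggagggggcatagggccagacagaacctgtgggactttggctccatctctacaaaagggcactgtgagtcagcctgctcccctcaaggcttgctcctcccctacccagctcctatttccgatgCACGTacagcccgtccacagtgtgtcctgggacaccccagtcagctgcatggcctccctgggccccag
Egln3: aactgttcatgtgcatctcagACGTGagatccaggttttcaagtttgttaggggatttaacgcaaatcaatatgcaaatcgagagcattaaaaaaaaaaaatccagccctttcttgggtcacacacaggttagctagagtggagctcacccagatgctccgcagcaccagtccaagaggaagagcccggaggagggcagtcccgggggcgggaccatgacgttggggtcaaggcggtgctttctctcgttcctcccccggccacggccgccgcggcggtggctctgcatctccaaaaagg
In the window printed, Aldoc holds ACGTG on the minus strand with its first base at position 28 of the transcript, and GCGTG at -50 and, on the minus strand, at 12. A second Aldoc window of the table, not printed (chr11:78323948-78324247), holds no ACGTG and 1 GCGTG, on the minus strand at -39. Pfkp holds 4 copies of GCGTG and no ACGTG. Bnip3 holds an E box with ACGTG on both strands, flanked by GCGTG on either side. Egln3 holds a single ACGTG far upstream, its first base at position -229, and Car9 a single one close to the start, at -18. Of the windows of Vegfa, which rose, the upstream one (chr17:46032328-46032627) held neither word and an internal one held 1 of each.

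Genes of the same pathways outside the 34 were counted in further lists. Of 18 other glycolytic isoforms, transporters and monocarboxylate carriers, 1 rose and 0 fell in limma, 5.56% against the 8.10% of all genes (3 and 0 at an unadjusted p under 0.05, against 20.1% of all genes). Slc2a6, which encodes the transporter-like protein GLUT6 of lysosomes, read 591, 603 and 492 in ERT2 and 1074, 1177 and 1116 in Cre-ERT2 arrays. Every Cre-ERT2 value lay far above the controls, at a log2 difference of 1.00 (SE 0.0895, limma adjusted p = 0.00125). Of 18 further regulators of flux 1 rose, Pdk3, a relative of Pdk1, by 0.23 (limma adjusted p = 0.0495), and 0 fell, again 5.56% against 8.10% (5 and 2 at an unadjusted p under 0.05, against 20.1%). The call of Pdk3 ended without any 1 of the 6 arrays (0.0580 to 0.187), under median centring (0.0629) and robust fitting (0.0509), without a pseudocount (0.0505) and with the replicate number as a block (0.0785).

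In the HIF system outside the 34 genes, 0 of 15 rose and 1 fell in limma, 6.67% against the 8.10% of all genes (1 and 2 at an unadjusted p under 0.05, against 20.1%). Cited2, which competes with HIF for its coactivators, read 7574, 7358 and 7649 in ERT2 and 5686, 5804 and 5652 in Cre-ERT2 arrays. The groups were clearly apart, and the difference was -0.40 (SE 0.0448, limma adjusted p = 0.00349). Arnt, the constant partner of HIF alpha subunits, had a difference of -0.12 and Epas1, which encodes HIF-2 alpha, of 0.06, and neither passed.

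Of 33 further HIF targets 4 rose and 3 fell, 21.2% against the 8.10% of all genes, with a median log2 difference of -0.04. Stc2, a secreted glycoprotein, read 455, 455 and 457 in ERT2 and 759, 703 and 689 in Cre-ERT2 arrays, a rise of 0.65 (limma adjusted p = 0.000900). Bhlhe40, a transcriptional repressor, read 613, 720 and 612 in ERT2 and 345, 357 and 337 in Cre-ERT2 arrays, a difference of -0.90 (limma adjusted p = 0.000996). Both genes had groups far apart, in opposite directions. Car12, another membrane carbonic anhydrase, fell from a mean of 2150 ± 124 to 1357 ± 40.6 (SD, n = 3), a difference of -0.66 (limma adjusted p = 0.00126), which is the direction of Car9. Tpd52 fell too, with a difference of -0.44 (0.00533). The remaining rises, named after their values were seen, were those of Angptl4 (0.50), Higd1a (0.48) and Ddit4 (0.41). Higd1a lost its call without any array other than ERT2 replicate 2 (limma adjusted p from 0.0673 to 0.0808) and Ddit4 without any other than ERT2 replicate 1 (0.0643 to 0.119).

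**Figure D4:**
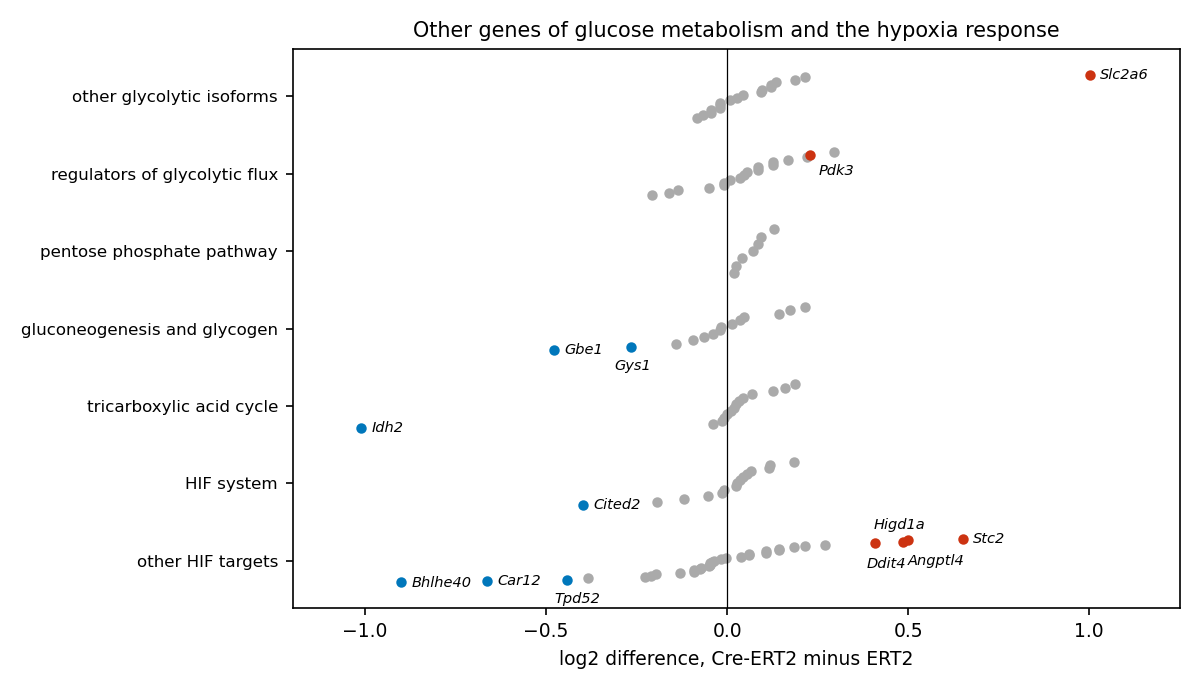
Log2 difference (Cre-ERT2 minus ERT2, x axis) of each measured gene of 7 further lists (y axis), coloured red where higher and blue where lower at a limma adjusted p under 0.05. Most points lie near 0, and the named genes, which are those that passed, run from Idh2 at -1.01 to Slc2a6 at 1.00. Some named genes, such as Pdk3 (0.23), lie nearer 0 than genes that did not pass, such as Pfkfb2 (0.29).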

How the data were processed

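The deposited intensities, 1 per probe set and array for 6 arrays (3 per group), were made by the authors with RMA (background correction, quantile normalization, probe summary), per the submitters' processing notes. The RMA version is not given in the sources used. The deposited intensities are linear (6.27 to 26714), so log2(intensity + 1) was tested, which slightly understates changes of dim probe sets; quantile normalization hides a shift of all genes. Of 35556 probe sets, 21789 named exactly 1 gene, 1621 several and 12146 none. All were fitted with limma 3.58.1 (R 4.3.3, lmFit and eBayes, no covariates) and called at 0.05 after Benjamini-Hochberg adjustment across the 35556. The calling was tested on simulated data with independent noise per probe set and array, which do not model shared array effects or pairing. Errors are moderated standard errors and 95% intervals are limma's, not adjusted for multiplicity.

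The genes and lists were chosen with earlier results of these data known, so no list was tested as a set. All 34 genes, Sox4 and up to 4 passing genes of each further list with the smallest p were named. Alternatives covered the variance prior, dim probe sets, scaling, array weights, replicate block, pseudocount, probe sets, a minimum fold of 1.5 and single arrays left out.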

Additional observations from a re-analysis of the deposited data

How the results depend on the processing

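Aldoc, Egln3 and Sox4 kept their direction and passed the threshold under every alternative in which they were tested (Sox4 from -1.42 to -1.25 on the log2 scale). Against a minimum fold of 1.5 (limma's treat) 2 of the 32 genes passed, 1 of core glycolysis and 0 HIF targets (also 0 at an unadjusted p under 0.05), and 320 probe sets of the array; there the test itself asks for a larger change. Of the 13 passing genes of the 7 further pathway lists, Idh2 alone passed it; marker genes were not run. Over the array 2152 probe sets passed, 4027 with array weights, and from 1261 to 2184 with single arrays left out, where fewer samples were fitted; the cause of the rise with array weights was not tested. With single arrays left out, 5 to 7 of the 32 genes passed. Deviations of same-numbered arrays correlated at 0.20, 0.34 and -0.05, and those of differently numbered arrays at -0.43 to 0.33. Deviations of 3 arrays from their own mean are tied to each other, so these values cannot decide whether replicates were paired. With the replicate block 1836 probe sets and the same number of the 32 genes, 6, passed. Genes that never passed changed sign near 0, and the cause was not tested: Hk2 under median centring (-0.0052), further quantile normalization (-0.029) and cyclic loess (-0.030), Tpi1 under further quantile normalization (-0.011), cyclic loess (-0.0025) and array weights (-0.0013), and Pgam1 with the mean of its probe sets (8.9e-05). With single arrays left out, values ran from -0.085 to 0.13 for Hk1, -0.050 to 0.075 for Hk2, -0.0060 to 0.031 for Tpi1, -0.048 to 0.026 for Pgam1, -0.090 to 0.00071 for Eno2, -0.031 to 0.0052 for Ldha, -0.030 to 0.0016 for Bnip3l and -0.071 to 0.044 for Ankrd37. Egln3, Car9, Eno2 and P4ha2 were not among the brighter part of the probe sets, so that alternative gave no value for them.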

Other observations

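Among enzymes that branch from glycolysis or follow it, the mitochondrial isocitrate dehydrogenase gene Idh2, which makes NADPH, stood apart. It read 5574, 5439 and 5152 in ERT2 and 2678, 2769 and 2576 in Cre-ERT2 arrays, and fell by 1.01 on the log2 scale (SE 0.0548, limma adjusted p = 0.000173). Of 14 genes of the tricarboxylic acid cycle, the mitochondrial oxidation of acetyl groups, it was the 1 that passed (7.14%, against 8.10% of all genes), and the other 13 had differences from -0.04 to 0.19, with 2 of them past an unadjusted p under 0.05 (20.1% of all genes). Idh3a, a subunit of the NAD-dependent enzyme, had a difference of 0.04.

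In the pentose phosphate pathway, which makes NADPH and ribose from glucose, 0 of 7 genes passed in limma (1 at an unadjusted p under 0.05), against 8.10% and 20.1% of all genes, and all 7 had differences between 0.02 and 0.13. Of 14 genes of gluconeogenesis and glycogen, 0 rose and 2 fell, 14.3% against the 8.10% of all genes (2 and 3 at an unadjusted p under 0.05, against 20.1%). Gys1, the glycogen synthase of muscle and other tissues, read 1257, 1315 and 1200 in ERT2 and 1039, 1053 and 1045 in Cre-ERT2 arrays, a difference of -0.26 (limma adjusted p = 0.0335). Gbe1, the branching enzyme of glycogen, fell by 0.48 (limma adjusted p = 0.0380). Gys1 lost its call with the replicate number as a block (0.0719) and when any array but ERT2 replicate 3 was left out (0.0626 to 0.139), and Gbe1 when any but ERT2 replicate 2 was left out (0.0662 to 0.121).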
